A study of Mus musculus with 4 samples.

Results

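Macrophage and leukocyte genes were examined in whole testes of mice lacking Taf7l and of wild type mice. The set holds 32 genes named by symbol, of 18193 genes with a name of their own on the array. They comprise the growth factor gene Csf1 and its receptor gene Csf1r, the complement genes C1qa, C1qb and C1qc, Fc receptors and their adaptors, scavenging and lysosomal genes, leukocyte surface molecules, chemokine receptors and lymphocyte genes. Every gene was on the array, through 57 probe sets that name it alone, and the probe set with the highest mean signal stood for its gene. Total RNA from 8-week-old males described as C57BL/6J was hybridised to 4 Affymetrix arrays, 2 of wild type testis and 2 of testis labelled Taf7l knockout, and the design calls the wild type mice littermates. Taf7l is an X-linked gene for a germ cell relative of the TFIID subunit Taf7. The nature of the mutant allele, and whether animals were pooled, were not stated in the labels used here. The testes were whole, so germ cells, Sertoli cells, Leydig cells and leukocytes contributed to the same RNA, and a difference in the number of leukocytes cannot be told apart from a difference in RNA per leukocyte.

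Resident macrophages are the most common leukocytes of the testis. They lie in the interstitium beside the steroid-producing Leydig cells and around the tubules, and depend on colony stimulating factor 1, which signals through the receptor tyrosine kinase encoded by Csf1r. The transcription factor PU.1 and other ETS family factors bind purine-rich GGAA sequences at many myeloid promoters. Lymphocytes are sparse in a healthy testis, which is regarded as an immune-privileged organ.

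Because several of these genes are known PU.1 targets, the bases before their start sites were read from RefSeq (GRCm38.p6). The table of promoters held 26 of the 32 genes, and Csf1r, Adgre1, C1qa, Cd14, Tyrobp and Itgb2 had no entry. The letters GAGGAA, or TTCCTC on the other strand, lay within 250 bases before a start site in 16 of the 26 genes. Counted by promoter, 17 of 28 (60.7%) held the match, against 7639 of all 32851 promoters of that length (23.3%). The longer GAGGAAGT, which contains the shorter match, or ACTTCCTC, was in 1 of the 28 member promoters, that of C1qc, and in 2.44% of all. These matches are letters in a window and were not measured as binding. The 4 windows below belong to the 4 members with the smallest p among those with an entry, and the 2 lysozyme windows are shown because their transcripts are close copies. All run 5′ to 3′ on the gene's strand and end at the base before the start site, with each GAGGAA or TTCCTC in capitals.
Fcmr, chr1:130865527-130865776, plus strand: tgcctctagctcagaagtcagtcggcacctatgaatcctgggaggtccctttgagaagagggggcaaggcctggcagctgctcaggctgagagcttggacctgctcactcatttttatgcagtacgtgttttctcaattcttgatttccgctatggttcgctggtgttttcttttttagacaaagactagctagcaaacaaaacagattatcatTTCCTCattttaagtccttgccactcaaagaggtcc
Fcgr3, chr1:171059404-171059653, minus strand: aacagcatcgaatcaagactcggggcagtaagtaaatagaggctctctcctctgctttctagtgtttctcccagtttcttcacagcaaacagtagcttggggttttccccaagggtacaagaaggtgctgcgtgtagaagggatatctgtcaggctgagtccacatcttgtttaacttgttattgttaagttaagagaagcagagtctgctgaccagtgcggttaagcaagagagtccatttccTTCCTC
C1qb, chr4:136886201-136886450, minus strand: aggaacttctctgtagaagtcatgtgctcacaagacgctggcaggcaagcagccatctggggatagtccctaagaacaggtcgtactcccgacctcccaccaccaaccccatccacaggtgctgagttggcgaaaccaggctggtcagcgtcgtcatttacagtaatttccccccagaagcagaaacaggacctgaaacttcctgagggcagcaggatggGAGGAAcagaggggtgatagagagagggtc
Laptm5, chr4:130913066-130913315, plus strand: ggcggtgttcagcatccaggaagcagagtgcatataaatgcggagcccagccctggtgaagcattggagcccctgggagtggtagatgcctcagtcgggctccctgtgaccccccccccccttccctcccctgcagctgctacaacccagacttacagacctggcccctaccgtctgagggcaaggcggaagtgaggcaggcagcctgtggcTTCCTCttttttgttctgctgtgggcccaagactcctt
Lyz1, chr10:117292869-117293118, minus strand: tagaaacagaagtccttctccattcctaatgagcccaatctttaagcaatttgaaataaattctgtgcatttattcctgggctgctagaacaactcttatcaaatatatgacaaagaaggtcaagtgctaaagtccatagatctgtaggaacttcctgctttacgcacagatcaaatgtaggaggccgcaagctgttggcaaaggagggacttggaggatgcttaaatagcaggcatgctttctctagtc
Lyz2, chr10:117282273-117282522, minus strand: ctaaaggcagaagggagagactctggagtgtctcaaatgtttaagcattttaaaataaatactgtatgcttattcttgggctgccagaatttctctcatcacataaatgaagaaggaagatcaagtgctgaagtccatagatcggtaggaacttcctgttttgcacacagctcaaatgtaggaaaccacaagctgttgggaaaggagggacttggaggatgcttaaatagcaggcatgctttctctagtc
The match began at position −36 from the start site in Fcmr, −6 in Fcgr3, −30 in C1qb and −38 in Laptm5. Neither lysozyme window held it. In a global alignment the lysozyme windows were identical at 200 positions (79.4% of alignment columns), whereas C1qb and C1qc, which neighbour each other on chromosome 4, were identical at 41.6%.

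Signal values are linear probe set intensities, and a probe set with a mean below 45.8 over the 4 arrays, the median of all mouse probe sets, was treated as background. The median signal was 45.2 to 45.7 on the 4 arrays, but the trimmed mean was lower on the knockout arrays (465 and 481) than on the wild type arrays (509 and 509). Taf7l gave 829 and 818 in wild type and 80.6 and 72.5 in knockout testis. Where its probe set lies relative to the mutation is not stated in the labels. All 10 spermatid and all 8 spermatocyte markers were above the background level. Both knockout arrays are called biological replicate 1 in their descriptions, so separate animals are not assured and p-values measure only the spread between these arrays. Wild type replicate 2 stood apart in adipocyte markers, whose summed signal over 8 genes was 1024 and 4207 in wild type against 1126 and 1830 in knockout testis.

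Of the 32 genes, 20 had a leading probe set above background and 12 did not. The genes were chosen with earlier results of these data known, so the shares below describe the list and do not test it. Among the 20, the mean log2 signal was higher in the knockout for 17 and lower for 3, with a median log2 difference of 0.21, while 39.3% of the 12241 genes above background were higher and their median difference was −0.05. After quantile normalization, which removes the difference in trimmed mean, the members had a median of 0.23 with 17 higher, and all probe sets above background had a median of −0.0038. The knockout and wild type signals did not overlap, with the knockout higher, in 11 of the 20, against 19.6% of all genes. They did not overlap with the knockout lower in 3, against 38.7%. No member passed limma at an adjusted p under 0.05 (0 of 20, against 1.74% of all genes), and 0 of their 31 probe sets above background did, against 1.39% of all probe sets. At an unadjusted p under 0.05 limma gave 7 of the 20, where 27.9% of all genes lay in both directions together. Of these 7, 6 were higher, and of all 12241 genes 917 were higher at that p. The 6 were Fcmr, Fcgr3, C1qb, Tyrobp, Laptm5 and Fcgr2b, and the seventh, lower, was Aif1. An exact permutation test of 2 against 2 arrays cannot go below p = 0.333, so none was run for single genes.

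The median of the list was above 0 on both knockout arrays and larger on the second. Relative to the wild type mean of each gene, the median of the 20 genes was −0.02 and 0.02 in wild type against 0.12 and 0.24 in knockout testis. Without knockout replicate 2 the median difference was 0.12 and without wild type replicate 2 it was 0.16, and 16 of the 20 genes were higher in each case. Leaving out Fcmr and Laptm5, the genes with the widest differences, 15 of 18 were higher with a median of 0.17, and the medians by array were −0.03 and 0.03 in wild type and 0.06 and 0.21 in knockout testis.

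**Figure D1:**
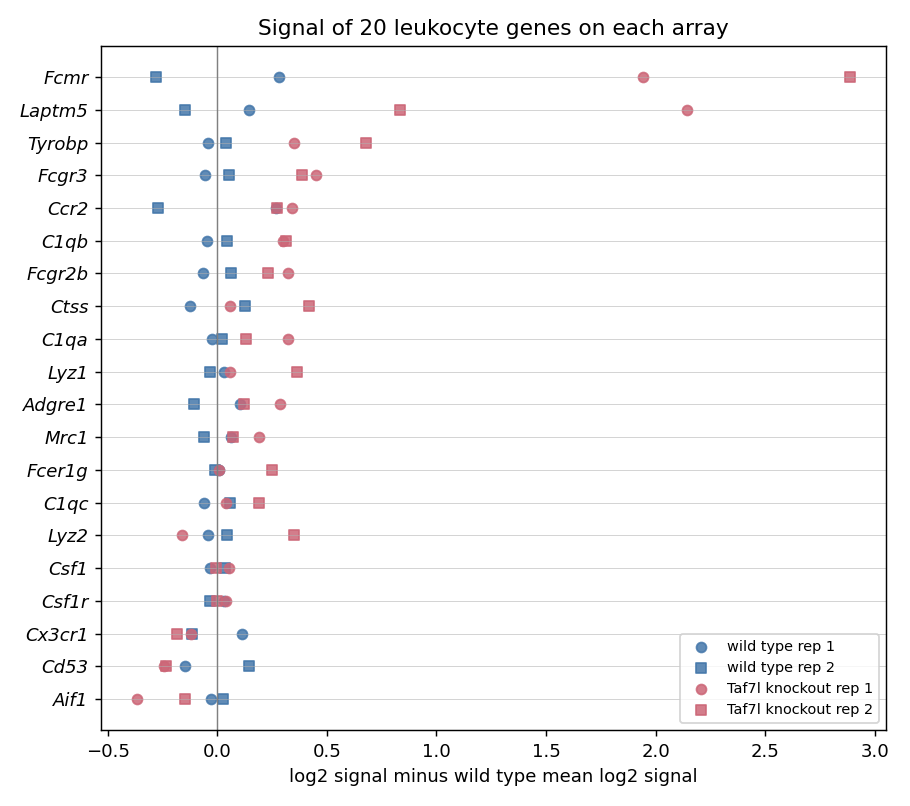
Log2 signal of each of the 20 genes above background on each of the 4 arrays, minus the mean log2 signal of the 2 wild type arrays for that gene; circles are replicate 1 and squares replicate 2. Fcmr and Laptm5 lie far to the right with wide spacing of the knockout arrays, most other genes lie within 0.7 of 0, and Csf1 and Csf1r have all 4 arrays close together.

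The CSF1 axis, which macrophages need to survive, showed almost the same signal in both genotypes. Csf1r, the receptor gene, had a signal of 188 and 179 in wild type and 188 and 183 in knockout testis. Its arrays overlapped, and the log2 difference was 0.02 (SE 0.091, 95% interval −0.21 to 0.25, limma adjusted p = 0.92). The other 2 Csf1r probe sets above background differed by 0.10 and 0.23, the latter with a wild type spread of 64.3 to 126. Csf1, the ligand gene, had 252 and 264 in wild type and 268 and 257 in knockout testis. These too overlapped (log2 0.03, 95% interval −0.20 to 0.25, limma adjusted p = 0.89), and a dimmer Csf1 probe set, at 66.0 ± 6.67 and 55.9 ± 8.38 (SD, n = 2), differed by −0.25. The intervals at the leading probe sets leave room for a change of up to 0.25 on the log2 scale in either gene.

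Among the C1q genes, whose products form the recognition subunit of the classical complement pathway and are made largely by macrophages, C1qb stood apart on all of its probe sets. C1qb had 854 and 908 in wild type and 1084 and 1093 in knockout testis. Both knockout arrays were above both wild type arrays, 1.24-fold on average (log2 0.31, SE 0.073, 95% interval 0.12 to 0.49), but limma gave an adjusted p = 0.085. The dimmer C1qb probe sets were 1.29-fold and 1.34-fold higher, with adjusted p of 0.085 and 0.11 by limma. The brightest and the 1.29-fold probe set are of the type that Affymetrix marks as liable to bind other sequences. The 1.34-fold one lacks that mark. C1qa was at 118 and 122 against 150.1 and 131, again without overlap (log2 0.23, 95% interval −0.05 to 0.50). C1qc was at 126 and 137 against 135 and 149.9, and its groups overlapped (log2 0.12, 95% interval −0.16 to 0.39). All 3 C1q genes thus had the higher mean in the knockout, by 0.12 to 0.31 on the log2 scale, with none passing the test.

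The Fc receptor genes and their signalling adaptors had the highest median difference of the groups of members, 0.42 over 5 genes above background. Fcgr3, a low-affinity activating receptor for IgG, had 559 and 602 in wild type and 792 and 758 in knockout testis. The groups were separated by more than their spread, with a 1.34-fold higher mean in the knockout (log2 0.42, SE 0.082, 95% interval 0.21 to 0.62, limma adjusted p = 0.067). Tyrobp, the gene of the ITAM adaptor DAP12, had 89.5 and 94.7 against 117 and 148. It too had no overlap, at 1.43-fold (log2 0.52, 95% interval 0.16 to 0.87, limma adjusted p = 0.11). Fcer1g, which encodes the shared Fc receptor gamma chain, had 124 and 123 against 124 and 146, so that 1 knockout array was at the wild type level and the difference was 0.13 (95% interval −0.17 to 0.43).

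Fcgr2b, the inhibitory receptor for IgG, was read by 4 probe sets above background that did not give the same size of difference. Its brightest, of the type that can match transcripts of more than 1 gene, had 121 and 133 in wild type and 159 and 149 in knockout testis. That is 1.21-fold with no overlap (log2 0.28, 95% interval 0.02 to 0.54, limma adjusted p = 0.18). A probe set of nearly the same brightness, of the type that Affymetrix marks as liable to bind other sequences, had 103.5 ± 5.09 and 172 ± 15.0 (SD, n = 2), a log2 difference of 0.73 (95% interval 0.45 to 1.01, limma adjusted p = 0.051). The other 2 differed by 0.11 and 0.42. The high-affinity receptor gene Fcgr1 was under the background level, at 15.96 to 23.9.

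Fcmr, which encodes the Fc receptor for IgM and is best known from B cells, had the widest difference of all members. Its only probe set had 160.4 and 109 in wild type and 507 and 977 in knockout testis. Both knockout arrays were above both wild type arrays, but they differed from each other by more than the whole wild type mean. The mean went from 135 ± 36.6 to 742 ± 332 (SD, n = 2), a 5.33-fold difference (log2 2.41, SE 0.35, 95% interval 1.52 to 3.31) that was just outside the threshold, with a limma adjusted p = 0.051. It passed limma in 5 alternative settings given in the closing section. Among these, the filter at the 75th percentile (318) kept Fcmr only through its knockout arrays, so that pass is not read. In the others the limma adjusted p was 0.028 to 0.046, and with no filter it was 0.17. The B cell gene Cd79a, the other B cell member, was at 4.90 to 5.14 on the 4 arrays, under the background level.

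Genes of scavenging, lysosomes and lysozyme had smaller differences, apart from 1 probe set of Laptm5. Mrc1, the mannose receptor gene typical of resident macrophages, had 1194 and 1095 in wild type and 1304 and 1204 in knockout testis. The lowest knockout array was just above the highest wild type array (log2 0.13, 95% interval −0.08 to 0.34, limma adjusted p = 0.40). Ctss, the gene of the lysosomal protease cathepsin S, had 303 and 360.3 against 344 and 442, and overlapped (log2 0.24, 95% interval −0.17 to 0.64). The scavenger receptor gene Cd163, the lysosomal glycoprotein gene Cd68, the lipopolysaccharide co-receptor gene Cd14 and Ly86, whose product pairs with a Toll-like receptor homologue, were all under background. Cd68 was at 5.27 to 5.46 and Cd163 at 11.3 to 14.04. Their differences are not read.

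Laptm5, which encodes a lysosomal membrane protein of blood cells, had 136 and 111 in wild type and 542 and 219 in knockout testis at its brightest probe set. The knockout arrays did not overlap with wild type but lay far apart from each other, and the log2 difference of 1.49 had a 95% interval of 0.41 to 2.57 (limma adjusted p = 0.12). The other 2 Laptm5 probe sets above background were at 80.9 ± 21.9 and 74.6 ± 11.1 and at 54.7 ± 2.12 and 54.6 ± 0.154 (SD, n = 2), with differences of −0.10 and −0.00. The difference at the brightest probe set was therefore not seen by the others, and without knockout replicate 1 its difference was 0.83, or 0.46 when averaged with the others over all arrays.

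The lysozyme genes Lyz1 and Lyz2 lie side by side on chromosome 10, and Lyz2 is the form of macrophages. Lyz2 had 919 and 975 in wild type and 848 and 1207 in knockout testis. Knockout replicate 1 was the lowest and knockout replicate 2 the highest of the 4, so the groups overlapped fully (log2 0.10, 95% interval −0.35 to 0.54), and without knockout replicate 2 the difference was −0.16. At the brightest Lyz1 probe set the values were 1510 and 1442 against 1537 and 1901, higher in the knockout but with knockout replicate 1 close to wild type (log2 0.21, 95% interval −0.08 to 0.51). The other Lyz1 probe set above background overlapped, at 735 and 757 against 709.5 and 868 (log2 0.07, limma adjusted p = 0.75). Both Lyz1 probe sets above background are of the type marked as liable to bind other sequences, whereas the Lyz1 probe set without that mark was under background on every array, at 12.3 to 12.8. How much of the Lyz1 signal came from Lyz2 transcripts was not tested.

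**Figure D2:**
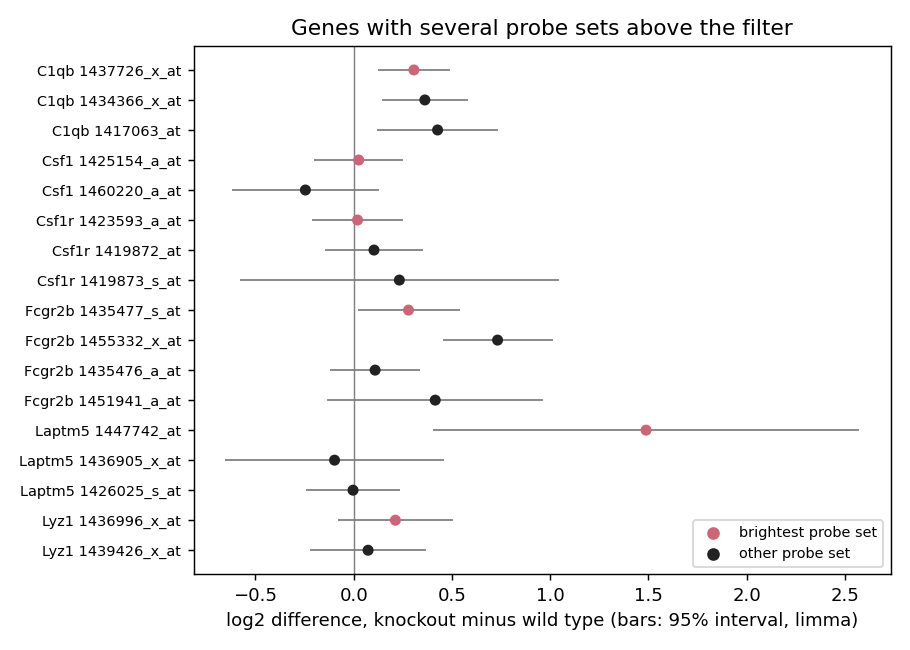
Log2 difference between knockout and wild type at the 17 probe sets above background that belong to the 6 genes with more than 1, with 95% intervals from limma; red marks the brightest probe set of each gene. The 3 C1qb probe sets lie between 0.31 and 0.43, the Fcgr2b ones between 0.11 and 0.73, and the Laptm5 difference of 1.49 is not shared by its other probe sets.

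Of the 6 surface and adhesion members, 3 were under background. Ptprc, the gene of the leukocyte antigen CD45, was at 11.9 to 14.02 at its brighter probe set, and the integrin genes Itgam and Itgb2 were at 6.24 to 6.46 and 10.8 to 11.5. Adgre1, the gene of the macrophage antigen F4/80, was above it, with 141 and 122 in wild type and 159.8 and 143 in knockout testis. Its groups were separated by a narrow gap (log2 0.20, 95% interval −0.10 to 0.51, limma adjusted p = 0.37). Cd53, a leukocyte tetraspanin gene close to background, had 53.8 and 65.8 against 50.3 and 50.6, lower in the knockout by −0.24 (95% interval −0.56 to 0.09). The Cd53 difference was −0.09 without wild type replicate 2 and −0.38 without wild type replicate 1.

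Aif1, known as a calcium-binding protein gene of macrophages, had by far the brightest probe set of the group and went the other way. Its signal was 21565 and 22402 in wild type and 17044 and 19833 in knockout testis. Both knockout arrays were below both wild type arrays, with a log2 difference of −0.26 (SE 0.082, 95% interval −0.47 to −0.05, limma adjusted p = 0.14). The probe set is of the type that can match transcripts of more than 1 gene. Of the 10 spermatid markers, 9 were lower in the knockout, with a median of −0.15 and a summed signal of 449592 and 436322 in wild type and 416794 and 405062 in knockout testis. Their part in the Aif1 value was not tested.

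The chemokine receptor genes differed in direction from each other. Ccr2, the receptor gene of circulating monocytes, had 110.4 and 76.0 in wild type and 116 and 110.7 in knockout testis. The knockout arrays lay only just above wild type replicate 1 (log2 0.31, 95% interval −0.18 to 0.80, limma adjusted p = 0.39). The difference rested on wild type replicate 2, at 0.04 without that array and 0.58 without wild type replicate 1, and its 3 other probe sets were under background. Cx3cr1, the fractalkine receptor gene, had 59.9 and 51.2 against 51.0 and 48.8, with a difference of −0.15 (95% interval −0.45 to 0.15) and with values close to background. The Cx3cr1 difference was −0.04 without wild type replicate 1 and −0.27 without wild type replicate 2.

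The T cell members Cd3e, Cd3d and Lcp2 gave no signal above background. Cd3e was at 20.1 to 20.4 on the 4 arrays and Cd3d at 4.87 to 4.93, and both encode chains of the T cell receptor complex. Lcp2, the gene of the adaptor SLP-76 of T and myeloid cells, had 22.8 and 26.4 in wild type and 27.6 and 26.2 in knockout testis. The 12 genes under background had mean signals of 4.90 to 37.5 and differences of −0.20 to 0.13. The member closest to the filter from above was Cx3cr1, with a mean of 52.7, and from below Ly86, with 37.5.

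**Figure D3:**
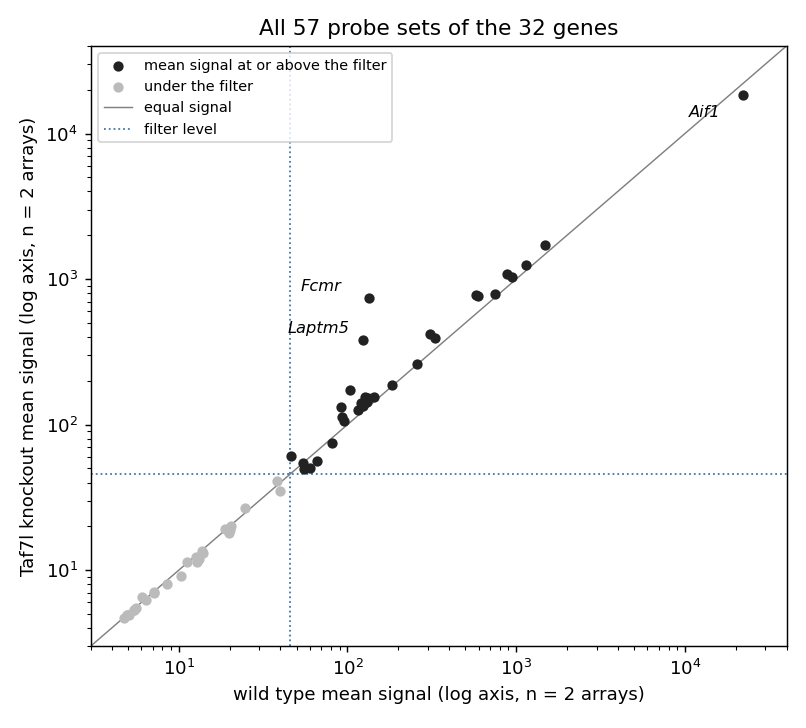
Mean signal in knockout against wild type testis for all 57 probe sets of the 32 genes, on log axes, with the background level of 45.8 as dotted lines and equal signal as the solid line. The 26 probe sets under the filter lie along the line, Fcmr and Laptm5 lie well above it, and Aif1, the brightest, lies below it.

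Other leukocyte genes, from 8 lists written from general knowledge but with earlier results of these data known, were read in the same way. Of 127 such genes on the array, 54 were above background, with a median difference of 0.05. The knockout was higher for 38 of the 54 and lower for 16, where 39.3% of all genes were higher. None of the 54 passed limma at an adjusted p under 0.05, against 1.74% of all genes. At an unadjusted p under 0.05 limma gave 6 of the 54, against 27.9% of all genes in both directions together. Of these 6, 5 were higher, and of all 12241 genes 917 were higher at that p. Of the 15 genes above background among macrophage receptors and lysosomal products, 12 were higher (median 0.05). The smallest p values there were those of the lysosomal protease gene Lgmn (log2 0.43), the lectin gene Clec10a and the pore-forming protein gene Mpeg1 (0.24), with limma adjusted p of 0.15, 0.18 and 0.33. Clec10a, at 37.9 and 36.5 in wild type and 66.0 and 44.7 in knockout testis, exceeded 45.8 on knockout replicate 1 alone. It passed the filter through that array, so its difference is not read, and it is 1 of the 12.

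The genes of myeloid signalling and the phagocyte oxidase split into higher and lower members, 6 and 3 of 9. Plcg2, a phospholipase gene downstream of Fc receptors, had 196 and 208 in wild type and 329.6 and 301 in knockout testis (log2 0.64, limma adjusted p = 0.051). Rac2, the GTPase gene of blood cells, had 45.77 and 47.8 against 70.1 and 65.1 (log2 0.53, limma adjusted p = 0.063). Its wild type values lay close to the background level of 45.83, with replicate 1 just under it. Vav1, a guanine nucleotide exchange factor gene of blood cells, was lower on both knockout arrays, at 335 and 354 against 234 and 194 (log2 −0.69, limma adjusted p = 0.059). All 3 had groups that did not overlap.

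None of the remaining lists had a gene that passed limma either. Of 11 pan-leukocyte genes above background 7 were higher (median 0.06). The smallest p values were those of the adhesion gene Cd48 (log2 0.50, limma adjusted p = 0.18), Cytip (0.17) and the migration regulator Dock2 (0.21). The 4 lower genes were Cd52 (−0.94), Arhgap30 (−0.38), Coro1a (−0.15) and Cd84 (−0.01). Cd52 had 79.0 and 285 in wild type and 71.6 and 85.8 in knockout testis, so only wild type replicate 2 was far from the other arrays. Of 6 genes of the CSF1 and PU.1 axis 4 were higher, with a median of 0.00. Among them Cebpa differed by 0.10, Runx1 by 0.05 and Maf by −0.03, and the PU.1 gene Spi1 and the second CSF1 receptor ligand gene Il34 were under background. Of 6 chemokines and cytokines 3 were higher (median −0.01), Ccl8 by 0.32, with Tnf at −0.12 and Ccl5 at −0.12. T and NK cell genes were above background for 2 of 15 on the array, Zap70 (−0.22) and Cd8a (0.03). B cell genes were above it for 3 of 10, Pax5 (0.12), Cd74 (0.11) and Ighm (0.03), and neutrophil and mast cell genes for 2 of 13, Mpo (0.07) and Tpsb2 (0.06).

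Among markers of other somatic cells of the testis, 1 gene of the Leydig list and 1 of the Sertoli list passed limma. Which cells gave their signal was not tested. Of 10 Leydig cell markers listed, Hsd3b6, Insl3, Lhcgr and Prlr had no probe set that names them alone. Of the other 6, 5 were higher in the knockout, with a median of 0.26. The summed signal of these 6 was 16742 and 16538 in wild type and 20543 and 21008 in knockout testis. Cyp17a1, a steroidogenic enzyme gene, rose 1.26-fold (limma adjusted p = 0.0496). Of 12 Sertoli cell markers above background 8 were higher, with a median of 0.05, and 7 of the 12 overlapped between the groups. Their sums over 14 genes, 71889 and 69485 against 88358 and 86770, were carried by a few bright probe sets, of which that of Clu alone gave 35026 on wild type replicate 1, and the prostaglandin synthase gene Ptgds rose 1.44-fold (limma adjusted p = 0.049). Peritubular myoid markers were higher in 4 of 6 (median 0.05, sums 11201 and 11770 against 11595 and 11585), endothelial ones in 2 of 2 (median 0.06, sums 393 and 344 against 395 and 377), and those of fibroblasts in 4 of 7 (median 0.02, sums 4326 and 4642 against 4544 and 4311). Of 6 adipocyte markers above background 1 was higher (median −0.36). Epididymis markers were higher in 3 of 5 (median 0.03), with sums of 502 and 939 in wild type against 475 and 462 in knockout testis, so that wild type replicate 2 was again the highest. Spermatocyte markers were higher in 5 of 8 (median 0.02), and of the red blood cell genes Alas2 alone was above background (−0.29). The actin control, a measure of RNA integrity, had a ratio of 3′ over 5′ signal of 2.09 and 1.999 in wild type against 2.42 and 2.18 in knockout testis. That of the Gapdh control went the other way, at 1.04 and 0.99 against 0.927 and 0.938. The part of these in the leukocyte values was not tested.

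**Figure D4:**
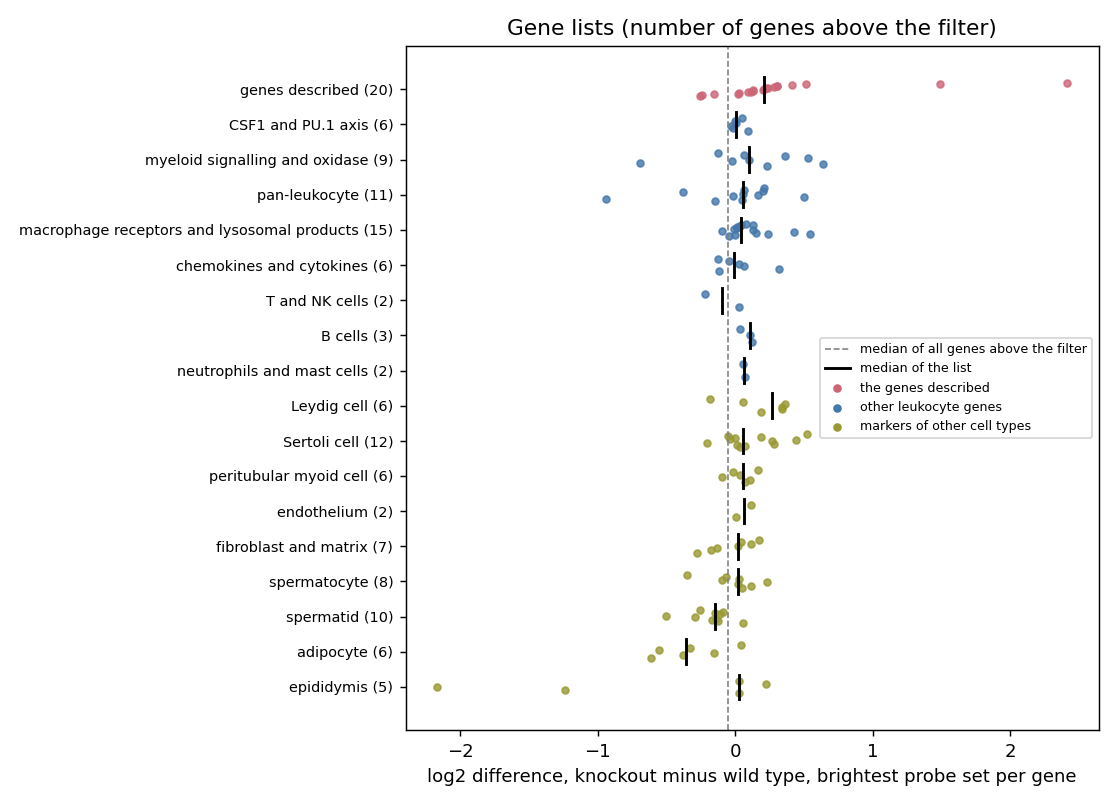
Log2 difference between knockout and wild type at the brightest probe set of each gene above background, by list, with the number of such genes in brackets; black bars are list medians and the dashed line is the median of all genes. The genes described have a median of 0.21 and the Leydig markers 0.26, to the right of the line at −0.05, and the spermatid markers have −0.15.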

How the data were processed

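Testis RNA of 4 samples was measured on Affymetrix arrays. The deposited table holds a linear intensity per probe set and array, made with MAS5 per the submitters' processing notes, with version and scaling target not given in the sources used here. MAS5 treats each array alone, so fold changes depend on its scaling. Of 45037 mouse probe sets, 34945 carry 1 gene symbol in the platform annotation, 932 several (dropped) and 9160 none. The table's build is not stated, and coordinates belong to the RefSeq promoters (GRCm38.p6) alone.

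Intensities were taken to log2 with no offset or further normalization, and the 22519 probe sets with a mean of at least 45.8 were fitted with limma 3.58.1 in R 4.3.3 (genotype as the only term, eBayes with a trend, two-sided, Benjamini-Hochberg over all of them, called at an adjusted p under 0.05). Of these, 312 were called (1.39%), 100 higher and 212 lower. The fit had 2 residual and 3.17 prior degrees of freedom, and the number of arrays limits precision. The procedure was tested on simulated data, where it called 6.4% of changes of log2 0.5, 72.4% of those of 1 and 95.2% of those of 2. Differences of the size seen in most members would thus mostly not be called. Every member is named at its brightest probe set, and from each other list every called gene plus at most 3 with the lowest p. The lower pan-leukocyte genes are named as well. The members and lists were chosen with earlier results of these data known. The alternatives tried were an offset of 16, quantile normalization, centring on the median, other filters, other priors, the replicate number as a block, 1 probe set per gene or their mean, a threshold of 0.10, and leaving out each array.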

Additional observations from a re-analysis of the deposited data

How the results depend on the processing

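Under 14 alternatives the 20 genes gave 268 values of single genes, of which 252 kept their direction and their side of the threshold, 11 newly passed and 5 changed sign. Other filters, other priors, the replicate block and 1 probe set per gene leave the log2 difference itself unchanged. Direction could not change in those settings, so the 252 do not measure how stable it is. The sign changes were those of Csf1 with the mean over probe sets (−0.11), without wild type replicate 1 (−0.0077) and without knockout replicate 1 (−0.0042), Csf1r without wild type replicate 2 (−0.013), and Lyz2 without knockout replicate 2 (−0.16). With 1 array left out these genes ranged from −0.0077 to 0.060 (Csf1), −0.013 to 0.052 (Csf1r) and −0.16 to 0.35 (Lyz2). The count of member genes called by limma, 0 as reported, was 1 with median centring (Fcmr), 4 of 8 with the 75th percentile filter (Aif1, Fcmr, C1qb and Fcgr3), 2 with the replicate block (Fcmr and Laptm5), 2 with 1 probe set per gene and 2 with the mean over probe sets (Fcgr3 and Fcmr each time), and 3 at an adjusted p under 0.10 (Fcmr, C1qb and Fcgr3, where 13.8% of all genes passed). It was 0 with any array left out, when the adjusted p of every gene was above 0.05. The number of genes higher was 16 or 17 of 20, except 7 of 8 with the 75th percentile filter and 20 of 32 with no filter. At the 75th percentile filter Fcmr was kept only through its knockout arrays, so its pass there is not read, and it is 1 of the 7. The median of 0.21 became 0.23 with quantile normalization, 0.11 with no filter and 0.17 with the mean over probe sets, and lay between 0.12 and 0.24 with 1 array left out. The count of all probe sets called, 312, was 148 with quantile normalization (91 higher, 57 lower), 646 with median centring (147 higher, 499 lower), 541 with the replicate block, 806 with 1 probe set per gene, 2628 at the 0.10 threshold, 36 with eBayes lacking a trend, 2375 after filtering at the 75th percentile, 0 with no filter (limma, 6192 at unadjusted p under 0.05), and 0 whichever array was left out (3076 to 5499 at unadjusted p under 0.05). The causes were not tested. The block is not taken as a pairing. Deviations of same-numbered arrays correlated at 0.03 over 22519 probe sets, which does not settle whether those arrays were handled together. Signals under 45.8 limit 12 of the 32 genes, Cd68 and Ptprc among them, to no reading in either direction.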

Other observations

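The genes next to Fcmr on chromosome 1 were read after its value was seen. Fcamr, Pigr, Il24, Il20 and Il10, which are immune genes of the same stretch, had probe sets under background on all 4 arrays, with the highest signal, 16.3, at 1 Pigr probe set on knockout replicate 1. The Fcmr difference was therefore not accompanied by signal from these neighbours.

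The wide members were not high on the same knockout array. Fcmr was higher on knockout replicate 2 (977 against 507), and Laptm5 on knockout replicate 1 (542 against 219). At the brightest probe sets Lyz2, Lyz1, Ctss, Tyrobp and Fcer1g were higher on knockout replicate 2, and C1qa, Fcgr3, Fcgr2b, Adgre1 and Mrc1 on knockout replicate 1. The Fcgr2b probe sets with differences of 0.73 and 0.42 were higher on knockout replicate 2 instead (183 against 162, and 67.7 against 54.5).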
